A study of Mus musculus with 4 samples.

Results

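GABA and glycine are the inhibitory transmitters of the retina, and 28 genes of their reception were followed here: 16 subunits of GABA-A receptors, 2 subunits of GABA-B receptors, 5 subunits of glycine receptors, and 5 scaffold or auxiliary proteins of inhibitory synapses. The 28 genes were taken by name from a list. All 28 had an identifier among the 78334 genes of the table, and 18 of them were among the 11427 genes with enough counts to be tested. The cells came from wild-type mice of both sexes and were collected as retinal ganglion cells, whose axons carry visual signals to the brain, 2 weeks after the optic nerve had been crushed. Each eye had received, 2 weeks before the crush, an AAV2 vector (adeno-associated virus) carrying the red reporter mCherry and an shRNA: in one group anti-miR132-3p, directed against the microRNA miR-132-3p, and in the other a scramble sequence as its control. The mice are given as 8 to 12 weeks old in both groups, with injection at 8 weeks of age. For each condition 10 retinas were pooled, panned with Thy1 and sorted for mCherry, with about 5000 cells per library and 2 libraries per group. Both groups carry the crush, the virus and mCherry, and no uninjured or uninjected sample was analysed here. The promoter that drives the shRNAs is not given in the sources used here. Because the other count columns name miR132, those headed mCherry were read as scramble, so every direction below rests on that reading.

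GABA-A and glycine receptors are ligand-gated chloride channels built from several subunits around a pore, and each subunit choice sets the receptor's kinetics, drug response and place on the cell. GABA-B receptors are G protein-coupled receptors that work as a pair of unlike subunits and act on potassium and calcium channels. In the inner retina, amacrine cells release GABA or glycine onto ganglion cells, bipolar cells and each other. Gephyrin and neuroligin-2 hold the channels at the synapse, and small transmembrane proteins such as LHFPL4 and SHISA7 travel with GABA-A receptors.

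Total counts were 1732416 and 1731199 in the anti-miR132-3p libraries, against 1845090 and 1846637 in the scramble libraries. Within a group the 2 libraries agreed within sampling noise: a chi-square test over genes gave 1.00 per degree of freedom for the anti-miR132-3p pair (p = 0.486) and 1.02 for the scramble pair (p = 0.0954). A pair was for this reason treated as 1 sample, with no SD and no replicate check of any difference below. Levels are CPM, counts scaled to a common library size with TMM factors. The CPM sums of cell type markers use library totals without TMM factors. Folds are of counts summed over a pair, anti-miR132-3p over scramble, with an exact (Clopper-Pearson) 95% interval that covers counting error only, and p-values speak of the reads in these libraries and not of the conditions. In 1 library, 3 counts were worth 1.66 to 1.74 CPM. The ganglion cell markers Nefl, Slc17a6, Sncg and Thy1 were well counted in every library, and Thy1 was also used for the panning. Other markers of the same list were low. Naming anti-miR132-3p libraries first, Pou4f2 had 3 and 4 against 5 and 3 counts, and Isl2 7 and 9 against 3 and 11. Rbpms had 77 and 67 against 90 and 91 counts. Pax6 was present in every library too, and held 52.8% of the counts of 16 amacrine markers. Summed amacrine markers stood at 3122 to 3167 CPM with the anti-miR132-3p shRNA and 2910 to 2926 CPM with the scramble shRNA, beside 2747 to 2795 and 2746 to 2814 CPM for 17 ganglion cell markers. Of 15 tested ganglion cell markers, 3 were called higher and 4 lower. Thy1 stood at 596 and 552 counts against 403 and 414 counts, and Stmn2 at 918 and 884 against 1274 and 1348 counts. Of 11 tested amacrine markers, 5 were called higher and 1 lower, and Gad1, Slc32a1 and Tfap2b were listed at 0. Such zeros stand beside well-counted relatives, as Gad2 with 894 and 901 counts against 685 and 680 counts, and since the counting method is not known they do not show that a transcript was absent. Bipolar markers stood at 143 to 163 CPM against 134 to 163 CPM, with Grm6 listed at 0 and Prkca holding 70.5% of them. Müller glia markers stood at 2329 to 2340 against 1746 to 1747 CPM, with Dkk3 holding 65.6% of them. Among 7 tested Müller glia markers, 2 were called higher and 0 lower. Dkk3 had 2815 and 2762 counts against 1969 and 1986, and Apoe 114 and 104 against 31 and 38. Clu had 934 and 979 counts against 1021 and 1002, and Glul 106 and 123 against 128 and 129. Rlbp1 had 16 and 10 counts against 19 and 25. Rod markers stood at 13.9 to 17.3 against 82.3 to 91.6 CPM, and cone markers at 2.31 to 6.35 against 15.2 to 24.4 CPM. Horizontal cell markers stood at 369.7 to 396 against 379.6 to 391.9 CPM, and microglia markers at 54.8 to 72.2 against 40.6 to 56.4 CPM. The part of these mixtures in the results below was not tested, and in such bulk RNA fewer cells of a type and less RNA per cell cannot be told apart.

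Of the 18 tested genes, 7 were called higher with the anti-miR132-3p shRNA and 0 lower by edgeR's quasi-likelihood test at a Benjamini-Hochberg adjusted p under 0.05. No other member had an unadjusted p under 0.05. Across all 11427 tested genes the same test called 13.5% higher and 10.4% lower, 1540 and 1183 genes, a split that became 1050 and 1403 genes under a correction for GC content and exon length without recentring of each library. The 7 were both GABA-B subunits (Gabbr1 and Gabbr2), 1 of 8 tested GABA-A subunits (Gabrg3), 1 of 3 tested glycine receptor subunits (Glra3) and 3 of 5 scaffold or auxiliary genes (Iqsec3, Lhfpl4 and Shisa7). Glrb, Gabra3 and Glra2, the 3 members with the highest levels per kb of exon in both groups, were not called. Gabrg3, Gabbr1, Gabbr2, Lhfpl4 and Shisa7 passed 1.5-fold upward and 0 members passed it downward, where 12.6% and 5.12% of all tested genes did. In 11 of the 18 genes both anti-miR132-3p libraries lay above both scramble libraries, and in 1 both lay below, against 31.3% and 30.6% of all tested genes. The median log2 fold change of the 18 genes was 0.24, beside -0.0030 for all tested genes.

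**Figure D1:**
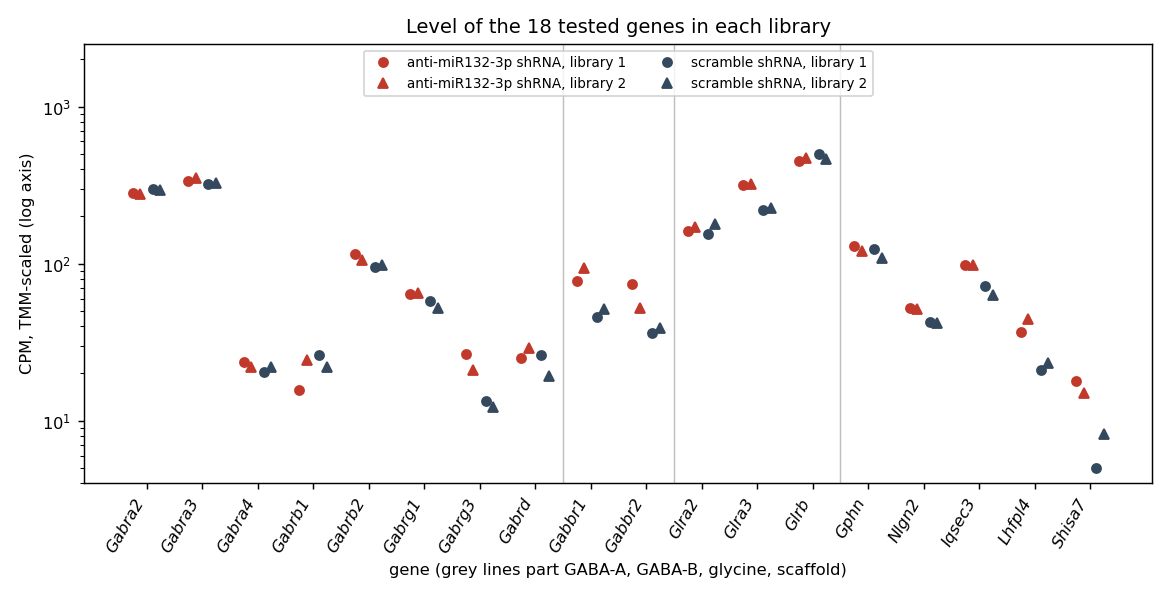
Level of each tested gene in CPM (log axis) in the 2 anti-miR132-3p libraries (red) and the 2 scramble libraries (dark blue), with circles for library 1 and triangles for library 2 of a group. The pairs part clearly at Gabrg3, Gabbr1, Gabbr2, Glra3, Iqsec3, Lhfpl4 and Shisa7, and lie together at Glrb, Gphn and Gabra4.

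How firm these 7 calls are differed between genes. Glra3 and Gabbr1 were also called by DESeq2 (adjusted p = 0.000173 and 0.00749), which called neither Gabbr2, Gabrg3, Iqsec3, Lhfpl4 nor Shisa7 (adjusted p between 0.0627 and 0.238). With the first anti-miR132-3p library left out, edgeR called Gabbr1, Glra3 and Lhfpl4, and with the second left out, Gabbr2 and Glra3. With the first or the second scramble library left out, edgeR called 0 members and 0 genes of the whole table, while 6 and 5 members, and 2756 and 2642 genes, had an unadjusted p under 0.05. The prior degrees of freedom of those fits were 1.7, beside 14.07 with all libraries, and the loss of calls covered the whole table. Over the 4 fits that each left out 1 library, the log2 fold change of Glra3 ran from 0.50 to 0.53 and that of Gabbr1 from 0.68 to 0.95. Base composition moved with the fold changes as well. Over the tested genes, which are not replicates of each other, Spearman's coefficient of the log2 fold change was 0.25 with GC content and 0.23 with exon length. After a correction for both, fitted in each library and recentred, edgeR called 6 members higher and 0 lower, where it called 11.1% and 8.32% of all tested genes: Gabbr2 and Iqsec3 were no longer called, and Gabra3 was.

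**Figure D2:**
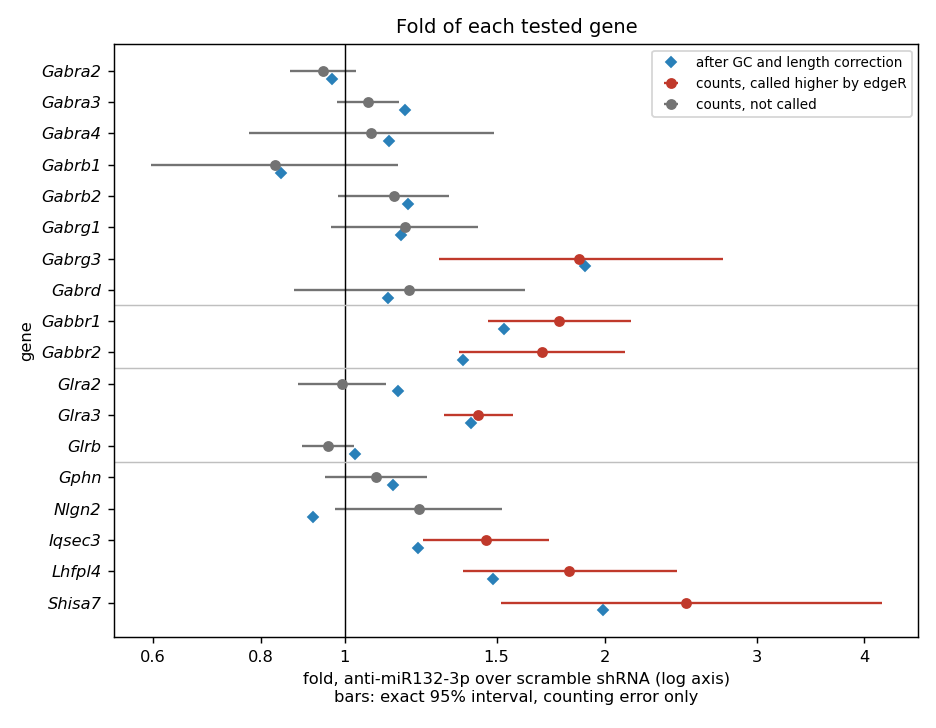
Fold of each tested gene, anti-miR132-3p over scramble shRNA (log axis), with exact 95% intervals for counting error; red marks genes called higher by edgeR, and blue diamonds the fold after correction for GC content and length. The 7 called genes lie between 1.43-fold and 2.49-fold, and the correction moves Nlgn2 from above 1 to 0.918.

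Both GABA-B subunits were called higher by edgeR with the anti-miR132-3p shRNA, and of the 2 DESeq2 called only Gabbr1. Gabbr1, which encodes the subunit that binds GABA, stood at 77.7 and 94.0 CPM in the anti-miR132-3p libraries, against 45.5 and 51.5 CPM in the scramble libraries. Both anti-miR132-3p libraries lay above both scramble libraries. Gabbr1 was 1.77-fold higher (1.46 to 2.15; edgeR adjusted p = 0.000374). Gabbr2, which encodes the partner that carries the receptor to the membrane and couples it to G proteins, stood at 74.2 and 52.2 CPM, against 36.1 and 38.7 CPM. Gabbr2 was 1.69-fold higher (1.36 to 2.11; edgeR adjusted p = 0.00487), and its 2 anti-miR132-3p libraries, at 128 and 90 counts, lay further apart than its scramble libraries, at 65 and 70 counts. After the GC and length correction the folds were 1.53 for Gabbr1 (edgeR adjusted p = 0.00188) and 1.37 for Gabbr2 (0.0578). The balance of the pair did not move beyond counting error: Gabbr1 held 57.6% of the counts of both genes with the anti-miR132-3p shRNA (exact interval 53.2 to 61.9%) and 56.5% with the scramble shRNA (50.7 to 62.0%). The anti-miR132-3p libraries themselves differed in it, at 51.1% (44.9 to 57.3%) and 64.3% (58.0 to 70.2%), intervals that do not meet, beside 55.8% and 57.1% in the scramble libraries. Relative to the GABA-A side, the GABA-B genes took a larger share. They held 14.5% and 14% of the counts of all 18 listed GABA receptor genes in the anti-miR132-3p libraries, against 8.64% and 9.62% in the scramble libraries, and the exact intervals of the summed pairs, 13.1 to 15.4% and 8.18 to 10.1%, did not meet.

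**Figure D3:**
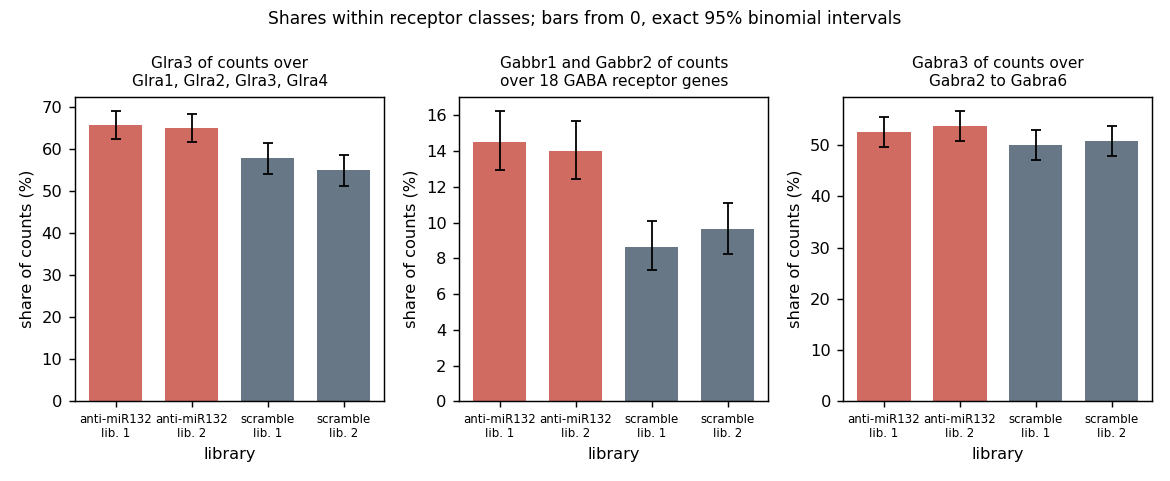
Share of counts, in percent, within 3 receptor classes in each of the 4 libraries, with exact 95% binomial intervals and bars that start at 0. The Glra3 share of glycine receptor alpha counts (65.7% and 64.95%, against 57.8% and 54.9%) and the GABA-B share of GABA receptor counts are higher in both anti-miR132-3p libraries, while the Gabra3 intervals overlap.

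Among glycine receptors, Glra3 was higher while Glra2 and Glrb were not called. Glra3, an alpha subunit found at glycinergic synapses of the inner retina, stood at 315 and 323 CPM in the anti-miR132-3p libraries, against 221 and 226 CPM in the scramble libraries. The groups did not overlap and the 2 libraries of each lay close together. Glra3 was 1.43-fold higher (1.302 to 1.56; edgeR adjusted p = 1.18e-05), and 1.40-fold higher after the GC and length correction. Glra2, the alpha subunit that prevails in the immature nervous system and persists in the retina, stood at 161 and 170 CPM, against 154 and 179 CPM, and these ranges overlapped. Its fold was 0.993 (0.884 to 1.12), and 1.15 after the correction (edgeR adjusted p = 0.0831). Glrb, the beta subunit that binds gephyrin, was at 448 and 473 CPM, against 497 and 466 CPM, with a fold of 0.957 (0.893 to 1.02). Glra1, the adult alpha subunit of spinal cord and brainstem, had 4 and 5 counts, against 7 and 10 counts, and Glra4 had 3 and 2, against 6 and 3 counts, both too few to be tested. In uncorrected counts, the make-up of the alpha subunits differed. Glra3 held 65.3% of the alpha counts with the anti-miR132-3p shRNA (exact interval 63.0 to 67.6%) and 56.3% with the scramble shRNA (53.7 to 58.9%), and Glra2 held 33.8% (31.6 to 36.2%) and 41.9% (39.3 to 44.5%). The GC and length correction brings both genes closer, to log2 fold changes of 0.49 for Glra3 and 0.21 for Glra2, beside 0.51 and -0.0100 uncorrected.

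Of the 16 listed GABA-A subunits, 8 had enough counts to be tested, and 7 of these were not called. Gabra3, an alpha subunit of synaptic receptors, stood at 338 and 350 CPM in the anti-miR132-3p libraries, against 321 and 326 CPM in the scramble libraries, which did not overlap but lay within 1.06-fold (0.981 to 1.15). It was called only after the GC and length correction, at 1.18-fold (edgeR adjusted p = 0.00372). Gabra2, another synaptic alpha subunit, stood at 281 and 279 CPM, against 300.2 and 293 CPM, and is the 1 tested member whose anti-miR132-3p libraries both lay below, at a fold of 0.943 (0.864 to 1.03) that was not called. Gabra3 held 53.1% of the counts of the 5 listed alpha genes with the anti-miR132-3p shRNA (51.0 to 55.2%) and 50.4% with the scramble shRNA (48.3 to 52.4%). Gabra4, an alpha subunit of extrasynaptic receptors in brain, stood at 23.8 and 22.1 CPM, against 20.5 and 22.1 CPM, a fold of 1.07 (0.775 to 1.49).

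Of the listed beta subunits, which carry part of the GABA site, Gabrb2 stood at 115 and 105 CPM, against 94.9 and 97.9 CPM, a fold of 1.14 (0.983 to 1.32). Gabrb1 stood at 15.7 and 24.4 CPM, against 26.1 and 22.1 CPM, and its groups overlapped, with a fold of 0.830 (0.597 to 1.15). Its 46 bases of exon shared with Gabra4 on the opposite strand are 0.3% of its annotated exons, and where its counts fall was not tested. Gabrd, the delta subunit of extrasynaptic receptors that respond to ambient GABA, stood at 24.9 and 29.0 CPM, against 26.1 and 19.4 CPM, a fold of 1.19 (0.873 to 1.62). None of these 3 was called.

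The gamma subunits, which place receptors at synapses and shape their response to benzodiazepines, are represented by Gabrg1 and Gabrg3, whose difference in response was not tested. Gabrg1 stood at 64.4 and 65.02 CPM in the anti-miR132-3p libraries, against 58.3 and 52.0 CPM in the scramble libraries, and was not called at a fold of 1.17 (0.965 to 1.43). Gabrg3 stood at 26.7 and 20.9 CPM, against 13.3 and 12.2 CPM, with no overlap. It was 1.87-fold higher (1.29 to 2.74; edgeR adjusted p = 0.0165) on 82 counts against 46, and 1.90-fold higher after the GC and length correction. Gabrg3 held 26.9% of the counts of the 2 gamma genes with the anti-miR132-3p shRNA (21.99 to 32.2%) and 18.8% with the scramble shRNA (14.1 to 24.2%), intervals that overlap.

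Gabrg3 is also the tested member with a 7-base match to the seed of the targeted microRNA in its 3' untranslated region (UTR), which is why the sequences are shown here. The mature microRNA is given from RefSeq (GRCm38.p6, chr11:75173723-75173744, plus strand) with its seed, bases 2 to 8, in capitals. The sites are given 5′ to 3′ in the sense of the transcript, from GENCODE M21, with the bases that pair with the seed, or with its first 6 bases followed by an A, in capitals.
mmu-miR-132-3p: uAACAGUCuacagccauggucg
Gabrg3, 7mer-m8 site: atcagcatcattccaGACTGTTttac
Gabrg3, 7mer-A1 site: tagcagggtcttggcACTGTTAtggc
Glrb, 7mer-A1 site: atgtgagtccagattACTGTTAgact
Gabrp, 7mer-m8 site: gccctgactggttccGACTGTTctga

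A search of the sense strand of each gene's longest annotated 3' UTR for GACTGTT (the 7mer-m8), or the same followed by an A (the 8mer GACTGTTA), found a match in 2 of the 28 genes, Gabrg3 and Gabrp, and both are 7mer-m8 sites. Among 10413 tested genes with an annotated 3' UTR, 14.2% held one, as did 1 of the 18 tested members, Gabrg3. In Gabrg3 the 7mer-m8 site begins at base 3076 and the 7mer-A1 site at base 1272 of an annotated 3' UTR of 7948 bases, counted from its 5′ end. Gabrp had 0 counts in every library, so its site can be set beside no value. Glrb, with a 7mer-A1 site (ACTGTTA), had the fold of 0.957 given above. When the 6mer ACTGTT is counted as well, 16 of the 28 genes held a match. They include 11 of the 18 tested members, beside 44.6% of the 10413 tested genes with an annotated 3' UTR. Among them are Glra3, Gabbr1, Iqsec3, Lhfpl4 and Shisa7, which were called higher, and Gabra2, Gabra3, Gabrb1, Glrb and Nlgn2, which were not. A match is a description of the sequence, and its part in any level was not tested. Gabbr2, which was called higher, had none in the 3' UTR searched. The libraries were made from polyA-selected RNA, so mature miR-132-3p itself was not measured.

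Of the scaffold and auxiliary genes, Gphn and Nlgn2 were not called and the other 3 were. Gphn, which encodes gephyrin, the lattice-forming anchor of glycine and GABA-A receptors, stood at 130 and 121 CPM in the anti-miR132-3p libraries, against 123 and 108 CPM in the scramble libraries, a fold of 1.09 (0.948 to 1.247). Nlgn2, the adhesion protein neuroligin-2 of inhibitory synapses, stood at 52.2 and 51.1 CPM, against 42.7 and 42.1 CPM, a fold of 1.22 (0.976 to 1.52). The groups of Nlgn2 did not overlap, but its direction turned after the GC and length correction, to a fold of 0.918, and at 60.7% its transcript has the highest GC content of the 18.

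Iqsec3, a guanine nucleotide exchange factor that binds gephyrin, stood at 98.6 and 97.5 CPM, against 71.6 and 63.1 CPM. It was 1.46-fold higher (1.23 to 1.72; edgeR adjusted p = 0.00222), and 1.22-fold after the correction, where it was no longer called (edgeR adjusted p = 0.0862). Lhfpl4, also named GARLH4, which links GABA-A receptors to neuroligin-2, stood at 36.5 and 44.1 CPM, against 21.1 and 23.2 CPM. It was 1.82-fold higher (1.37 to 2.43; edgeR adjusted p = 0.00403) and 1.49-fold after the correction (edgeR adjusted p = 0.0408). Shisa7, a single-pass protein that regulates the trafficking and kinetics of GABA-A receptors, stood at 17.97 and 15.1 CPM, against 4.99 and 8.30 CPM. Its 57 counts against 24 gave the largest fold among the 18 tested members, 2.49 (1.52 to 4.19; edgeR adjusted p = 0.00787), and 1.99 after the correction (edgeR adjusted p = 0.0340).

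**Figure D4:**
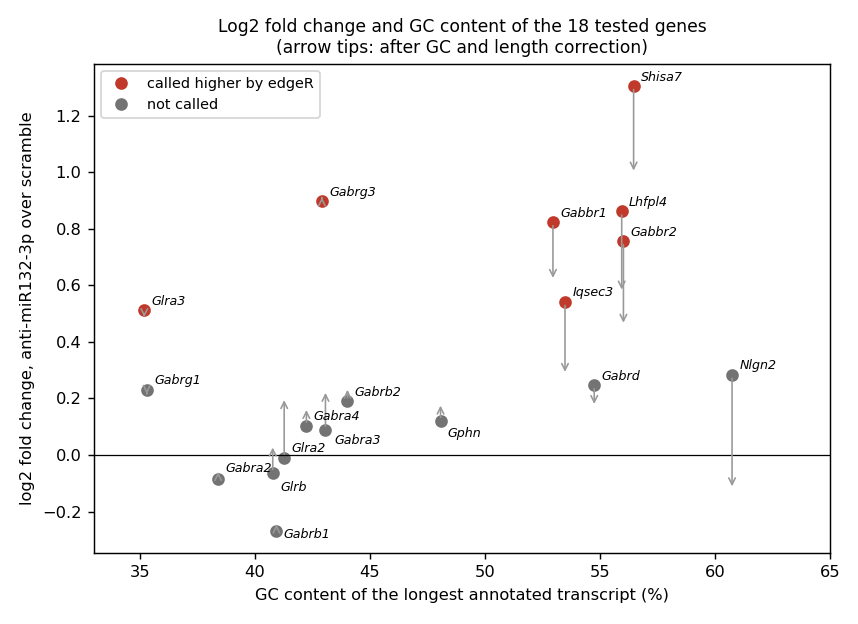
Log2 fold change of each tested gene, anti-miR132-3p over scramble, against the GC content of its longest annotated transcript in percent; arrow tips show the value after correction for GC content and length. Gabbr1, Gabbr2, Iqsec3, Lhfpl4 and Shisa7 lie between 53.0% and 56.5% GC and move down with the correction, while Glra3 at 35.2% and Gabrg3 at 42.9% hardly move.

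The called genes differ in base composition. Gabbr1, Gabbr2, Iqsec3, Lhfpl4 and Shisa7 have transcripts of 53.0 to 56.5% GC, above the median of 48.7% of all tested genes, and their log2 fold changes ran from 0.54 to 1.31 uncorrected and from 0.28 to 0.99 corrected. Glra3 and Gabrg3 lie below that median, and their corrected log2 fold changes were 0.49 and 0.92, beside 0.51 and 0.90 uncorrected. Over the 18 tested genes the corrected median log2 fold change was 0.22, beside 0.027 for all genes.

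The remaining 10 genes were barely detected or listed at 0. Gabra6, the alpha subunit of cerebellar granule cells, and Gabrp, the pi subunit of epithelia, had 0 counts in all 4 libraries. Gabra5, an alpha subunit of extrasynaptic receptors in hippocampus, had 1 and 3 counts in the anti-miR132-3p libraries, against 0 and 2 counts in the scramble libraries. The Gabrr subunits, which form the receptors once called GABA-C and are known in the retina from bipolar cells, had few counts: Gabrr1 had 2 and 1, against 0 and 2, Gabrr2 had 2 and 1, against 1 and 0, and Gabrr3 had 0 and 0, against 1 and 0. Gabre had 1 and 0, against 1 and 0, and Gabrq had 2 and 1, against 1 and 1. Differences of these genes were not detectable at this depth.

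Per length of annotated exon, glycine receptor and GABA-A alpha genes led. In CPM per kb of exon, Glrb was highest, at 98.9 with the anti-miR132-3p shRNA and 103 with the scramble shRNA, and Gabra3 followed at 87.7 and 82.4. Glra2 came next at 52.5 and 52.9. With the anti-miR132-3p shRNA, Gabra2 at 36.6 (exact Poisson interval 34.4 to 39.0), Glra3 at 34.7 (32.6 to 36.8) and Gphn at 33.5 (30.4 to 36.8) could not be ordered within counting error. With the scramble shRNA, Gabra2 at 38.8 (36.5 to 41.2), Gphn at 30.8 (27.9 to 33.9) and Glra3 at 24.3 (22.6 to 26.0) were apart. Gabrb2 stood at 17.3 and 15.2. Gabbr1 and Gabbr2, at 11.1 and 9.46 with the anti-miR132-3p shRNA and 6.24 and 5.59 with the scramble shRNA, were followed with the anti-miR132-3p shRNA by Gabrd at 9.38, Nlgn2 at 8.93, Gabrg1 at 8.22, Iqsec3 at 7.22 and Lhfpl4 at 6.94, while with the scramble shRNA Gabrd at 7.90, Nlgn2 at 7.33 and Gabrg1 at 7.01 stood above both. Many neighbours in this order have overlapping intervals, as Gabbr2 (8.24 to 10.8) and Gabrd (7.57 to 11.5) with the anti-miR132-3p shRNA. Gabbr1 (5.35 to 7.24) and Gabbr2 (4.69 to 6.62) with the scramble shRNA also overlapped Gabrd (6.28 to 9.81), Nlgn2 (6.21 to 8.58) and Gabrg1 (6.07 to 8.05). Their order there was within counting error. At the low end with the anti-miR132-3p shRNA, Gabrb1 at 1.45 (1.13 to 1.83) and Gabrg3 at 1.99 (1.59 to 2.47) had overlapping intervals. With the scramble shRNA, the intervals of Shisa7 at 1.00 (0.642 to 1.49), Gabrg3 at 1.07 (0.782 to 1.42) and Gabrb1 at 1.74 (1.395 to 2.15) overlapped. With the longest transcript in place of the summed exons, Glrb, Gabra3 and Glra2 stayed the first 3 by level in both groups, and Glra3 at 49.0 passed Gabra2 at 47.8 with the anti-miR132-3p shRNA.

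**Figure D5:**
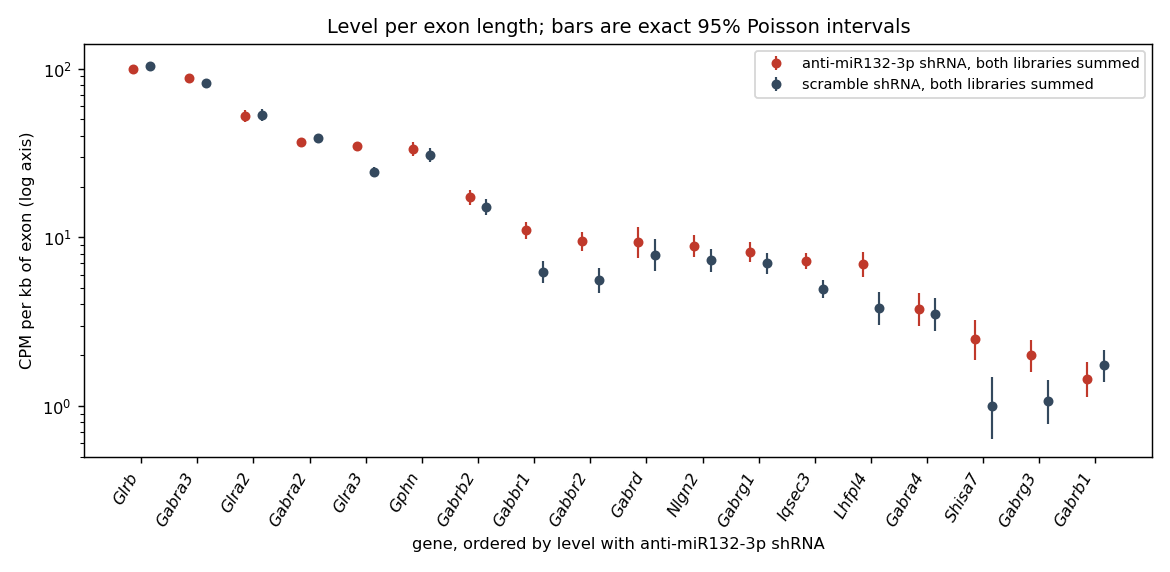
Level of each tested gene in CPM per kb of annotated exon (log axis), summed over the 2 libraries of each group, with exact 95% Poisson intervals; red is the anti-miR132-3p shRNA and dark blue the scramble shRNA. Glrb and Gabra3 lead in both groups, and the group intervals part at Glra3, Gabbr1, Gabbr2, Iqsec3, Lhfpl4, Shisa7 and Gabrg3.

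Several of the genes are neighbours in the genome, as GABA-A subunit genes often lie in clusters. In GENCODE M21, Gabrg1 and Gabra2 adjoin each other on chromosome 5, as do Gabra4 and Gabrb1, and none of the 4 was called. Gabrg3 and Gabra5 adjoin on chromosome 7, where Gabrg3 was called higher and Gabra5 had 4 counts against 2. Gabrb2 adjoins the undetected Gabra6 on chromosome 11, and Gabra3 adjoins Gabrq on chromosome X, where Gabrq had 3 counts against 2. Gabrr1 and Gabrr2, both barely detected, adjoin on chromosome 4.

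Partners of these receptors were read from 4 lists of 81 genes in all, of which 68 were tested, 20 were called higher and 10 lower, to be read beside the 13.5% and 10.4% of all tested genes, and 11.1% and 8.32% after the correction. The list on assembly, trafficking and anchoring of GABA-A receptors had 13 of 31 tested genes higher and 5 lower, with a median log2 fold change of 0.29, and 8 higher and 4 lower after the GC and length correction. Insyn1, a component of the gephyrin complex, had 40 and 22 counts in the anti-miR132-3p libraries, against 7 and 9 in the scramble libraries, 4.06-fold higher (2.31 to 7.53). Hap1, a huntingtin-associated adaptor that recycles GABA-A receptors, had 51 and 52 counts, against 23 and 18, 2.63-fold higher (1.82 to 3.88). Trak2, an adaptor of kinesin transport, was 1.82-fold higher (1.42 to 2.33), and Kif5a, the kinesin heavy chain itself, 1.77-fold higher (1.52 to 2.05).

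In the list of GABA-B receptor partners, 1 of 19 tested genes was called higher and 5 were called lower. Their median log2 fold change was -0.020, and after the correction 0 were called higher and 5 lower. Gnb1 and Gng3, subunits of G proteins, were 1.29-fold (1.21 to 1.37) and 1.195-fold lower (1.13 to 1.26). Ddit3 and Atf4, transcription factors of the stress response reported to bind GABA-B subunits, were 1.48-fold (1.33 to 1.65) and 1.19-fold lower (1.05 to 1.35). The corrected fold of Ddit3 was 0.858. These 4 genes serve many receptors or pathways.

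The chloride transport list had 1 of 9 tested genes higher and 0 lower. Slc12a5, the neuronal chloride extruder KCC2 that lets GABA and glycine hyperpolarise a cell, stood at 138 and 119 CPM in the anti-miR132-3p libraries, against 88.2 and 97.9 CPM in the scramble libraries, 1.38-fold higher (1.195 to 1.60). After the correction its fold was 1.07 and it was not called. In the list of synthesis, release and uptake, 5 of 9 tested genes stood higher by the test and 0 lower, at a median log2 fold change of 0.46, and all 5 were still called after the correction. Slc6a11, the GABA transporter GAT3, was 2.74-fold higher (2.22 to 3.39), Slc6a9, the glycine transporter GlyT1, 2.72-fold higher (2.02 to 3.71), and Abat, which degrades GABA, 1.55-fold higher (1.42 to 1.70). Slc6a9 and Gad2, a GABA-synthesising enzyme that was 1.38-fold higher (1.28 to 1.48), are among the called genes and also on the list of amacrine markers, whose sum was given above. Gad1 and Slc32a1 of this list were listed at 0, with the limit given above.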

How the data were processed

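The deposited values are unnormalised read counts, 1 column per library. Per the submitters' processing notes, the tools included HISAT2 2.2.1, Trimmomatic 0.39 and SAMtools 1.10, beside programs of the Cufflinks suite, with build GRCm39. The sources used here do not give the read counter, annotation release or strandedness, so overlapping and antisense genes cannot be told apart. Symbols, exon lengths, GC content and 3' UTRs came from GENCODE M21 (GRCm38), an older build, which named 51486 of 78334 identifiers, so no coordinates of the counted genes are given.

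In R 4.3.3, genes passing edgeR 4.0.16's filterByExpr were scaled by TMM and compared with glmQLFit and glmQLFTest, adjusted over all 11427 tested genes. The steps were checked on simulated counts. DESeq2 1.42.0, limma 3.58.1, other scalings and filters, left-out libraries, a replicate block and spline corrections for GC content and exon length (4 degrees of freedom each, fitted per library; 98.7% of tested genes had both values) were alternatives. Python 3.11.15 drew the figures. Of each partner list, up to 4 called genes with the largest changes were named, except items that are not reported here. The members and lists were chosen with earlier results of these data known. Intervals cover counting error only. Per the labels, retinas were pooled within a condition and no separate animals are named for the 2 libraries. The p-values therefore set a difference between groups only against the spread within the pairs, which may be technical.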

Additional observations from a re-analysis of the deposited data

How the results depend on the processing

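As reported, 1540 genes were called higher and 1183 lower over the whole table, with 7 members and 20 partners higher, and 0 members and 10 partners lower. With RLE or upper-quartile factors, library totals, a minimum mean of 10 counts, the likelihood ratio test, limma-voom or the replicate block, the same 7 members were called. Without a low-count filter the calls were 1 and 2 genes, and 0 members and 0 partners. DESeq2 called 481 and 274 genes, 2 members higher, and 12 and 4 partners. With each pair summed and an assumed coefficient of variation of 0.1, 0.2 and 0.4, the calls were 409 and 47, 43 and 6, and 6 and 1 genes, with 2, 0 and 0 members, and 7, 0 and 0 partners higher and 0 lower. Leaving out 1 library gave 0 to 427 genes higher and 0 to 218 lower, 0 to 3 members higher and 0 to 0 lower, 0 to 12 partners higher and 0 to 3 lower, and a median of the members' log2 fold change of 0.19 to 0.31. The GC and length correction left 1264 and 951 genes and 13 partners higher, and also 13 with the replicate block. Without recentring each library's offsets, a setting chosen after seeing the data, it left 1050 and 1403 genes, 5 members and 11 partners higher. With the 6mer and 7mer-A1 counted, 16 members held a seed match. What drives these differences between settings was not tested.

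Changes of direction were limited to 4 members that were not called as reported. Gabrb1 ran from a log2 fold change of -0.62 without the second anti-miR132-3p library to 0.017 without the first. Glra2 was at 0.017 with library totals, -0.11 without the first scramble library and 0.10 without the second, 0.031 without the first anti-miR132-3p library, and 0.21, 0.21 and 0.14 after the correction, with the block and without recentring. Glrb was at 0.039 after the correction, also with the block. Nlgn2 was at -0.12, -0.12 and -0.19 under those 3 settings. The replicate numbers share no labelled source, and the deviations of same-numbered libraries correlated at 0.013. The replicate block called 1740 and 1437 genes and 7 members higher. With counts of 24 to 82 per group, Shisa7 and Gabrg3 are the called members least well measured at this depth.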
